A study of Mus musculus with 10 samples.

Results

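The 10 lysosomal protease transcripts, the cathepsins Ctsl, Ctsb, Ctsc, Ctsf, Ctsh, Ctsk, Ctss, Ctsz, Ctsd and Ctsa, were compared between granulosa cells with and without the progesterone receptor. They were taken by name, 1 probe set each, and are 10 of the 19938 genes tested. The cells had been released by puncture of antral follicles of mice 21 to 23 days old, and each array gave log2 expression values per probe set. The mice had been given equine chorionic gonadotropin (5 IU) and, 44 to 47 h later, human chorionic gonadotropin (hCG, 5 IU), and cells were taken 8 h after hCG. PRKO mice were homozygous for a lacZ insertion in Pgr, the progesterone receptor gene, which disrupts both receptor isoforms. PR+/- mice, the controls, carried the same insertion in 1 copy, so no wild-type mice are in the comparison. Each array held cells pooled from 3 animals, giving 5 pools and 15 animals per genotype. The insertion is in the germ line, so cells other than granulosa cells lack the receptor too.

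Cathepsins are made as inactive precursors, tagged with mannose 6-phosphate in the Golgi, carried by mannose 6-phosphate receptors to endosomes, and activated in the acidic lysosome. They degrade endocytosed and autophagic protein, and some are also secreted and act on extracellular matrix. In the mouse ovary, cathepsin L is known as a protease of ovulatory granulosa cells that depends on the progesterone receptor. Of the 10, 8 are papain-type cysteine proteases, Ctsd is an aspartic protease and Ctsa a serine carboxypeptidase.

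Cathepsin L stood alone among the 10 in passing the threshold, and it was lower in PRKO. Ctsl, a potent lysosomal endopeptidase, fell 1.34-fold, by 0.43 on the log2 scale (SE 0.08, limma adjusted p = 0.00844), while the other 9 did not pass. The signs went both ways: 7 of the 10 differences were above 0, and their median was 0.05, against a median of -0.02 over all genes. The threshold was an adjusted p under 0.05 in limma (Benjamini-Hochberg, over the 19938 genes). It called 1 of the 10 cathepsins, lower in PRKO, beside 2.46% of all genes tested (1.71% lower and 0.752% higher). The genotypes did not overlap in 2 of the 10, Ctsl and Ctsz, beside 4.42% of all genes. At an unadjusted p under 0.05 there were 5 members, 2 lower and 3 higher, against 13.0% of all genes. The 10 genes were chosen by name, with earlier results of these data known. These counts thus describe the family and carry no test of their own.

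The array medians lay between 6.48 and 6.55 and the pairwise correlations between 0.973 and 0.992, and no array stood apart. Dimness was judged from 1027 olfactory receptor genes, whose 95th percentile was 5.86. All 10 cathepsins had a mean above that level, Ctsk only just. Pgr had a log2 difference of -0.46 (SE 0.27, limma adjusted p = 0.527), and the sources used here do not say where its probes lie relative to the insertion, so it does not check the labels. Granulosa cell markers were bright, with Inha, an inhibin subunit, at 12.68 in PR+/- and 12.92 in PRKO. Markers of other ovarian cells also had a mean above the olfactory receptor level in at least 1 genotype: 8 of 8 oocyte, 7 of 7 theca and stroma, 6 of 7 endothelial and 11 of 18 leukocyte genes. Signal of these markers was thus read in the pools, though several leukocyte markers lay near that level. In such material fewer cells of a type and less RNA per cell cannot be told apart.

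Promoter windows, 250 bases before to 50 after the start, were found in the RefSeq table (build GRCm38.p6) for 8 of the 10 cathepsins, all but Ctsb and Ctsh. They were searched for CACGTG, the E-box, for TCACGTGA, the longer palindrome at the core of the element bound by the lysosomal regulator TFEB, which contains CACGTG, and for ACANNNTGT, the inner letters of the palindrome that progesterone, glucocorticoid and androgen receptors bind. Each motif reads the same on both strands. CACGTG was in 3 cathepsin windows (Ctsl, Ctsf and, at 2 places, Ctsd) and in 7.24% of all 27025 windows. The longer TCACGTGA was in that of Ctsd, at the site nearer the start, and in 1.01% of all. ACANNNTGT was in 3 (Ctsc, Ctsk and Ctss) and in 6.90% of all. Over the 15614 tested genes with a window, the shares were 8.38% for CACGTG, 1.35% for TCACGTGA and 5.69% for ACANNNTGT. The stretches of 30 bases around these matches are shown, that of Ctsl from inside the gene. Motif letters are in capitals.
Ctsl (chr13:64370739-64370768, minus strand): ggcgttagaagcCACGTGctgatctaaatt
Ctsf (chr19:4855074-4855103, plus strand): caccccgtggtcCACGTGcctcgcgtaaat
Ctsd far (chr7:142388048-142388077, minus strand): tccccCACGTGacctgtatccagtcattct
Ctsd near (chr7:142387908-142387937, minus strand): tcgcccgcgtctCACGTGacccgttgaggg
Ctsc (chr7:88277958-88277987, plus strand): cctcacctagtcACACCCTGTccctcccta
Ctsk (chr3:95499117-95499146, plus strand): gatactgtatacACACATTGTgcaaatgtg
Ctss (chr3:95526692-95526721, plus strand): agctcattacacACAAACTGTcccaaggtg
The matches begin 236 (Ctsl), 79 (Ctsf), 245 and 98 (Ctsd), 115 (Ctsc), 81 (Ctsk) and 82 (Ctss) bases before the start used in the table. For Ctsl that start lies inside the gene, 252 bases downstream of the gene's 5′ end in the same annotation. The 250 bases before it thus also lie inside the gene, and the CACGTG shown for Ctsl is just downstream of that end. Sequence upstream of the Ctsl gene was not searched, so motifs not found for Ctsl say nothing about it. The start used for Ctsc lies 61 bases inside the gene, with its match still upstream of the gene's 5′ end, and the starts of the others are at the gene's 5′ end. None of the 3 members with ACANNNTGT passed the genotype test, and a match of letters is not a binding site.

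Ctsl was read by probe set 10410124. PR+/- pools 1 to 5 read 12.48, 12.55, 12.43, 12.44 and 12.49 on the log2 scale. PRKO pools 1 to 5 read 11.91, 12.26, 12.01, 11.91 and 12.18. The 5 PRKO pools all lay under the lowest PR+/- pool, and they were more spread, with means of 12.48 ± 0.05 and 12.05 ± 0.16 (SD, n = 5 pools each). The 95% interval of the difference was -0.60 to -0.26. The call held without each pool in turn, with limma adjusted p from 0.00396 to 0.0300.

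Within each pool, Ctsl was also set against each of the other 9 cathepsins, a difference of log2 values in which the scaling of the array cancels. Ctsl minus Ctsz was 1.76 ± 0.03 among PR+/- pools and 1.12 ± 0.21 among PRKO pools (mean ± SD of 5 pools), and Ctsl minus Ctsb was 2.27 ± 0.08 and 1.65 ± 0.25. Neither pair of groups overlapped. Of the 9 differences, 6 were lower in every PRKO pool than in every PR+/- pool, the exceptions being those to Ctsc, Ctsf and Ctss. The shifts ran from -0.75 for Ctsh through -0.22 for Ctss to near 0 for Ctsc, which read lower in PRKO by as much as Ctsl did. These values show unequal change between transcripts and, since Ctsl was known to be lower, carry no test.

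**Figure D1:**
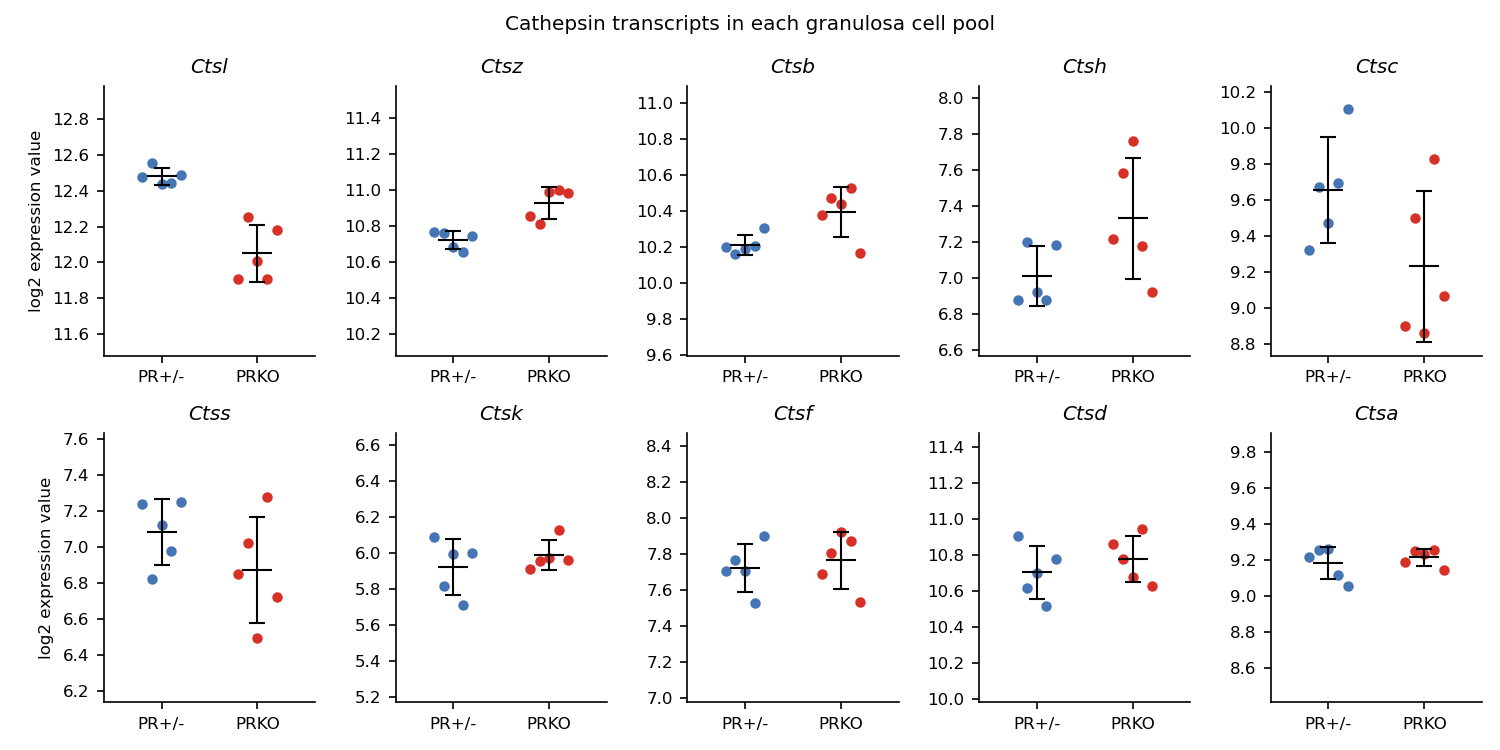
Log2 expression value (y axis, the same span in every panel) of the 10 cathepsins in the 5 PR+/- (blue) and 5 PRKO (red) pools, with the mean and SD as black bars. The PRKO pools of Ctsl sit under all PR+/- pools, those of Ctsz above them, and the other 8 genes overlap.

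Ctsz, cathepsin Z or X, a carboxypeptidase that trims single residues, read higher in every PRKO pool without passing the threshold. PR+/- pools 1 to 5 read 10.77, 10.76, 10.68, 10.66 and 10.74, and PRKO pools read 10.86, 10.81, 10.99, 11.00 and 10.98. The groups did not overlap, and the lowest PRKO value was 10.81 beside a highest PR+/- value of 10.77. The log2 difference was 0.21, with a 95% interval of 0.06 to 0.35 and an adjusted p from limma of 0.158.

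Ctsb, cathepsin B, which cuts both inside proteins and dipeptides from their ends, differed by 0.18 (interval 0.02 to 0.35, adjusted p from limma 0.313). In order, its PR+/- pools read 10.20, 10.16, 10.19, 10.21 and 10.31, and PRKO pools read 10.38, 10.47, 10.44, 10.53 and 10.17. In 4 of the 5 PRKO pools the value was above the highest PR+/- pool, and PRKO pool 5 was at the level of the controls. Ctsh, cathepsin H, an aminopeptidase, had a larger and less certain difference of 0.32 (95% interval 0.02 to 0.62, limma adjusted p = 0.341). Its PR+/- pools read 6.87, 7.20, 6.92, 6.88 and 7.18 and its PRKO pools 7.22, 7.58, 7.76, 7.18 and 6.92. PRKO pools 2 and 3 were the high ones, and the SD was 0.16 in PR+/- and 0.34 in PRKO.

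Ctsc, dipeptidyl peptidase I, known for activating the granule serine proteases of leukocytes, varied most among the 10. PR+/- pools 1 to 5 read 9.32, 9.67, 9.47, 9.69 and 10.10, and PRKO pools read 8.90, 9.50, 8.86, 9.82 and 9.07. Its log2 difference of -0.42 was as large as that of Ctsl, but the SE was 0.18 and the adjusted p from limma 0.339. PRKO pools 1, 3 and 5 were under all controls, while PRKO pools 2 and 4 lay among them. Without PRKO pool 4 the difference was -0.57, and without PR+/- pool 5 it was -0.31.

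Ctss, cathepsin S, which works at neutral pH and is known for cutting the invariant chain in antigen-presenting cells, differed by -0.21 (interval -0.49 to 0.07, adjusted p from limma 0.558). In order, its PR+/- pools read 7.24, 6.82, 7.12, 6.98 and 7.25, and PRKO pools read 6.85, 7.02, 6.50, 7.28 and 6.72. PRKO pool 4 was the highest of all 10 pools and PRKO pool 3 the lowest. Ctsk, the collagen-degrading cathepsin of osteoclasts and fibroblasts, is the neighbour of Ctss on chromosome 3. It read 5.71 to 6.09 in PR+/- and 5.91 to 6.13 in PRKO, near background, with a difference of 0.06 (95% interval -0.11 to 0.24).

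The remaining 3 had differences under 0.1. Ctsd, the main lysosomal aspartic protease, read 10.52 to 10.90 in PR+/- and 10.63 to 10.94 in PRKO, a difference of 0.07 (95% interval -0.11 to 0.26). Ctsa, which shields beta-galactosidase and neuraminidase in a lysosomal complex, read 9.06 to 9.26 in PR+/- and 9.15 to 9.26 in PRKO, a difference of 0.03 (95% interval -0.11 to 0.18). Ctsf, a further cysteine protease, read 7.53 to 7.90 and 7.53 to 7.92, a difference of 0.04 (95% interval -0.15 to 0.24). Each of these 3 intervals leaves out a change of the size seen in Ctsl in either direction. The limma adjusted p for Ctsk, Ctsd, Ctsa and Ctsf lay between 0.778 and 0.890.

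**Figure D2:**
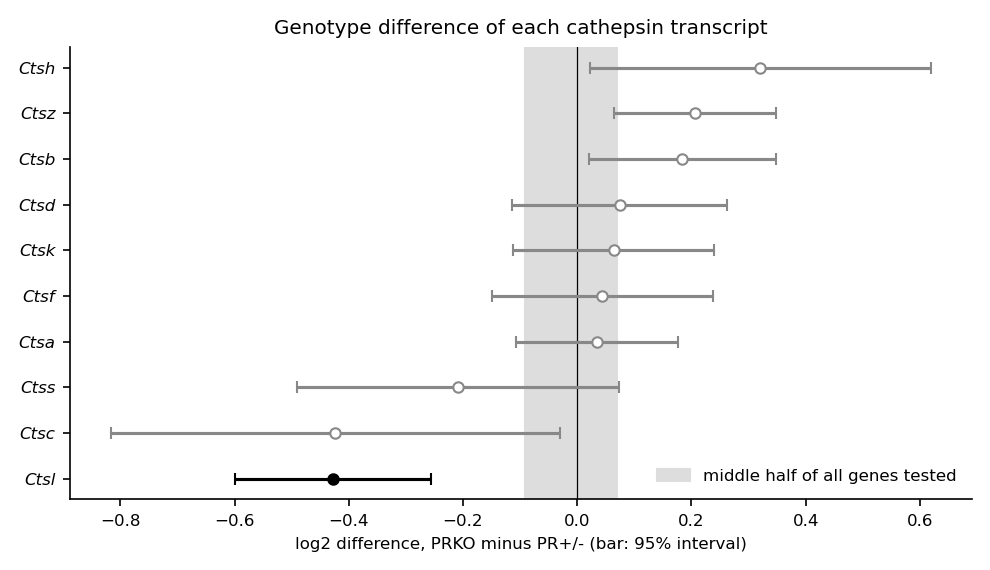
Log2 difference (x axis, PRKO minus PR+/-) of each cathepsin with its 95% interval, the filled point being the gene past the threshold and the grey band the range from the lower to the upper quartile of all genes tested (-0.09 to 0.07). Ctsl is lowest at -0.43 and Ctsh highest at 0.32.

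Of 11 other mouse cathepsins measured, several of them known from placenta or leukocytes, 1 was above the olfactory receptor level, Ctso, a cysteine protease, at 7.45 in PR+/- and 7.61 in PRKO. None of the 11 passed in limma, and their median difference was -0.11. At an unadjusted p under 0.05 were 2 of them, Cts7 and Ctsg, both dim, against 13.0% of all genes.

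Genes that carry, sort and activate lysosomal enzymes changed in both directions. Of 15 measured, 4 passed, 2 lower and 2 higher (26.7%, against 2.46% of all genes), with a median difference of 0.07. The list was chosen with earlier results of these data known, so this share describes it and carries no test. Vps26a, a subunit of the retromer that returns mannose 6-phosphate receptors from endosomes to the Golgi, fell 2.09-fold (log2 difference -1.07, SE 0.10, limma adjusted p = 2.06e-05). Its PR+/- pools read 10.02, 9.54, 9.59, 9.73 and 9.56 and its PRKO pools 8.62, 8.48, 8.57, 8.61 and 8.84. Vps29, another retromer subunit, was not called, with a difference of 0.15 (SE 0.09, limma adjusted p = 0.530). Psap, prosaposin, the secreted and lysosomal precursor of the saposins that help break down sphingolipids, fell by 0.43 on the log2 scale (SE 0.08, limma adjusted p = 0.00607). PR+/- pools read 12.96, 12.70, 12.93, 12.81 and 12.86 for Psap, and PRKO pools read 12.40, 12.36, 12.35, 12.61 and 12.40. All PRKO pools of both genes were under all PR+/- pools.

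Lgmn, legumain, the asparagine-specific protease that processes cathepsins B, H and L to their cleaved mature forms, was 1.39-fold higher in PRKO (log2 difference 0.48, SE 0.09, limma adjusted p = 0.0124). Its PR+/- pools read 11.28, 10.94, 11.06, 11.11 and 11.35 and its PRKO pools 11.67, 11.54, 11.44, 11.81 and 11.67, with no overlap. Igf2r, the cation-independent mannose 6-phosphate receptor, rose by 0.31 (SE 0.07, limma adjusted p = 0.0357). PR+/- pools read 9.34, 9.53, 9.35, 9.37 and 9.39 for Igf2r, and PRKO pools read 9.62, 9.75, 9.87, 9.63 and 9.66. The Igf2r groups did not overlap either, but its call was lost with quantile normalization (adjusted p = 0.0570) and without any 1 of 8 pools, all but PR+/- pool 2 and PRKO pool 4 (up to 0.0990). Gga2, a Golgi sorting adaptor, and Scarb2, the carrier of glucocerebrosidase, had values of 0.21 and 0.15 and did not pass.

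Both Igf2r and Vps26a hold TCACGTGA in the promoter window, Igf2r at 2 places and Vps26a at 1, and they differed in opposite directions. The stretches are shown for comparison with that of Ctsd near, which holds the same letters. The letters CACGTG are in capitals, with the flanking t and a of the longer motif beside them.
Igf2r far (chr17:12769737-12769766, minus strand): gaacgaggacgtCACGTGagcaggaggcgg
Igf2r near (chr17:12769707-12769736, minus strand): ggcgggggcgggccgactcaggtCACGTGa
Vps26a (chr10:62486970-62486999, minus strand): cgcacggctcgtCACGTGacaactagctct
The CACGTG matches begin 48 and 7 bases before the start in Igf2r and 182 in Vps26a. Vps26a has another CACGTG after the start, which is not shown. TCACGTGA was in 3 of 12 sorting genes with a window, 3 of 10 proton pump genes, 2 of 15 lysosomal membrane genes and 1 of 27 hydrolases. It was in 0 of 15 genes of the TFEB and mTOR control list, 0 of 8 inhibitors and 0 of 9 other cathepsins, and in 1.35% of the 15614 tested genes with a window.

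**Figure D3:**
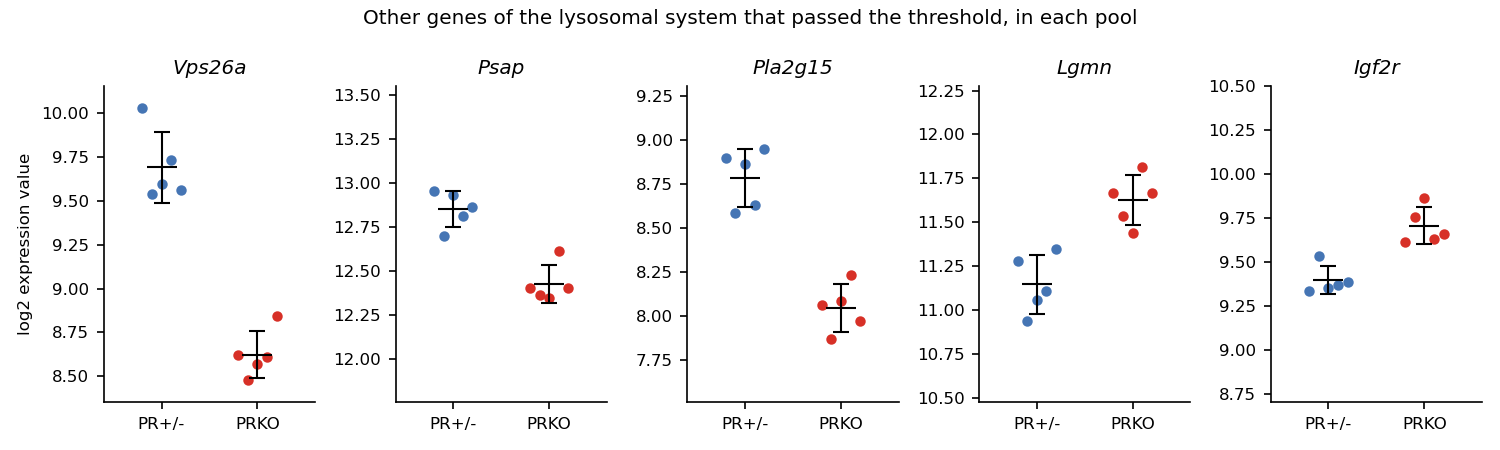
Log2 expression value (y axis, the same span in every panel) of the 5 other lysosomal genes that passed the threshold, in 5 PR+/- (blue) and 5 PRKO (red) pools, with the mean and SD as black bars. Vps26a, Psap and Pla2g15 are lower and Lgmn and Igf2r higher in PRKO, with no overlap in any of the 5. They are shown because they passed in these same pools, so the lack of overlap carries no test.

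Other soluble lysosomal enzymes gave 1 call among 30 measured (3.33%, against 2.46% of all genes). Pla2g15, the lysosomal phospholipase A2, fell 1.67-fold, from 8.79 ± 0.17 in PR+/- to 8.05 ± 0.14 in PRKO (mean ± SD of 5 pools, limma adjusted p = 0.000282). Its PR+/- pools read 8.90, 8.59, 8.86, 8.63 and 8.95 and its PRKO pools 8.06, 7.87, 8.08, 8.23 and 7.97. Apart from this gene, the differences leaned upward: 23 of the 30 were above 0, against 44.8% of all genes tested, and the median was 0.08. The genes were read in the same pools, so their signs are not separate observations. At an unadjusted p under 0.05 there were 10 above 0, beside 13.0% of all genes in either direction. None of the 10 passed after adjustment. The 3 with the smallest p were Ppt1, a palmitoyl thioesterase (0.21), Aga, the aspartylglucosaminidase (0.25), and Naglu, an enzyme of heparan sulfate breakdown (0.45), with limma adjusted p of 0.204, 0.226 and 0.231.

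Inhibitors, membrane proteins, the proton pump and the TFEB and mTOR control list gave no call in limma. Over all genes, 13.0% had an unadjusted p under 0.05. Of 12 inhibitors measured, 5 were above background in at least 1 genotype. There was 1 with an unadjusted p under 0.05, Serpinb6b, a serpin (0.33, limma adjusted p = 0.218). Cst3, cystatin C, the main secreted inhibitor of cysteine cathepsins, had a difference of 0.24 (95% interval -0.03 to 0.51), and Cd74, the invariant chain, one of -0.30 (95% interval -0.65 to 0.05). Among 19 lysosomal membrane proteins, 2 had an unadjusted p under 0.05, Laptm4a (0.23, with no overlap between genotypes) and Laptm4b (0.27), with limma adjusted p of 0.121 and 0.148. Hgsnat, an acetyltransferase of heparan sulfate breakdown, had -0.17.

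Among 16 subunits of the vacuolar proton pump, which acidifies lysosomes, 2 had an unadjusted p under 0.05, Atp6v1g1 (0.22) and Atp6ap2 (0.23), and Atp6ap1 had 0.15. Of 17 genes of the TFEB and mTOR control of lysosomes, 2 did so, Fnip1 (-0.18) and Lamtor4 (0.15), and Lamtor1 had 0.21. Both counts stand beside 13.0% of all genes at that unadjusted p. The median differences of the inhibitor, membrane, pump and control lists were 0.04, 0.03, 0.03 and 0.01. Over the 7 lists beside the 10 cathepsins, 5 of 120 genes passed (4.17%, against 2.46% of all genes), 3 lower and 2 higher. These lists were chosen with earlier results of the data known, so the share carries no test.

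**Figure D4:**
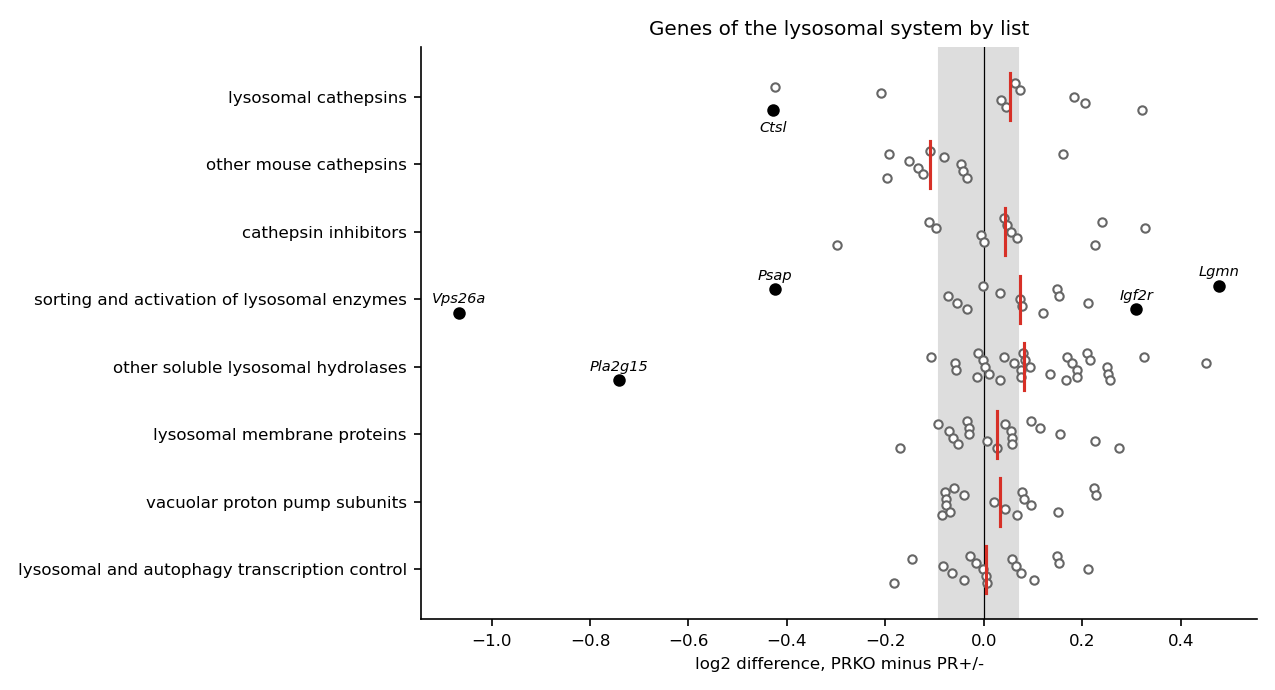
Log2 difference (x axis, PRKO minus PR+/-) of every measured gene in 8 lists of the lysosomal system (rows), with filled, named points for genes past the threshold, a red line at each list's median and a grey band from the lower to the upper quartile of all genes tested. Vps26a is lowest at -1.07 and Lgmn highest at 0.48.

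Several cathepsins are known as leukocyte genes, and leukocyte markers were measured beside them. The mean of 18 markers was 5.91 to 6.12 in the PR+/- pools and 5.72 to 6.04 in the PRKO pools. By sign, 15 of the 18 were lower in PRKO, while 44.8% of all genes tested were above 0. The markers were read in the same pools, so their signs are not separate observations. None of the 18 passed in limma (3 at an unadjusted p under 0.05, against 13.0% of all genes). The brightest were Cd68 (7.29 in PR+/- and 7.25 in PRKO), Lyz2 (6.75 and 6.73) and Cx3cr1 (6.52 and 6.40). The pan-leukocyte gene Ptprc and the macrophage gene Adgre1 were among the 7 with both means under the olfactory receptor level.

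Within genotypes, Ctss and the leukocyte marker mean moved together across the 10 pools (Pearson r = 0.71, permutation p = 0.0492, Spearman rho = 0.71, permutation p = 0.0413, deviations from genotype means permuted within genotype). After adjustment over the 10 cathepsins neither held (0.204 and 0.237), and r was 0.73 (permutation p = 0.0903) without PRKO pools 2 and 5, those farthest from the median. Ctsb had the highest r of the 10, 0.76 (permutation p = 0.0190, adjusted p = 0.190; rho = 0.66, permutation p = 0.0635, adjusted p = 0.237), which was 0.61 (permutation p = 0.179) without the same pools. Ctsl had an r of -0.08 (permutation p = 0.853, adjusted p = 0.853; rho = -0.10, permutation p = 0.806, adjusted p = 0.821). It was -0.43 (permutation p = 0.339) without those pools.

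The other marker means were added after the data were seen, for 50 relations in all. Some cathepsins had a high r with several means. Ctss had 0.71 with the leukocyte and with the theca and stroma mean, and -0.78 with the granulosa mean. Ctsd had 0.67 with the theca and stroma mean and -0.59 with the granulosa mean. Ctsb had 0.83 with the theca and stroma mean (permutation p = 0.00340, adjusted p = 0.0567), and Ctsk 0.83 with the endothelial mean (permutation p = 0.0119, adjusted p = 0.149). None of these passed. Without the 2 pools farthest from the median of each marker mean, the granulosa r was -0.35 for Ctss and -0.39 for Ctsd (permutation p = 0.401 and 0.374). Ctsk then had 0.75 with the endothelial mean (permutation p = 0.2865). The theca and stroma r was then 0.81 for Ctsb (permutation p = 0.0389), 0.73 for Ctss and 0.72 for Ctsd. By Pearson r 2 relations passed after adjustment over the 50, and by Spearman rho 1 of them. Both were with the mean of 7 endothelial markers. That mean was 6.54 to 6.97 in PR+/- and 6.53 to 7.16 in PRKO, highest in PRKO pool 4. Ctsd followed it with r = 0.88 (permutation p = 0.000278, adjusted p = 0.0139) and rho = 0.84 (permutation p = 0.00326, adjusted p = 0.0816). Ctss followed it with r = 0.89 (permutation p = 0.000694, adjusted p = 0.0174) and rho = 0.89 (permutation p = 0.000903, adjusted p = 0.0451). Without PR+/- pool 1 and PRKO pool 4, the farthest from the median, r was 0.88 for Ctsd (permutation p = 0.0122) and 0.79 for Ctss (permutation p = 0.0174). For Ctsl it was -0.47 (permutation p = 0.264, adjusted p = 0.509; rho = -0.36, permutation p = 0.307, adjusted p = 0.512), and -0.20 without them (permutation p = 0.495). Ctsl had its highest r of the 5 marker means with the 8 oocyte markers, 0.68 (permutation p = 0.0169, adjusted p = 0.151; rho = 0.53, permutation p = 0.147, adjusted p = 0.383), and it was 0.17 (permutation p = 0.519) without PR+/- pool 2 and PRKO pool 2.

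**Figure D5:**
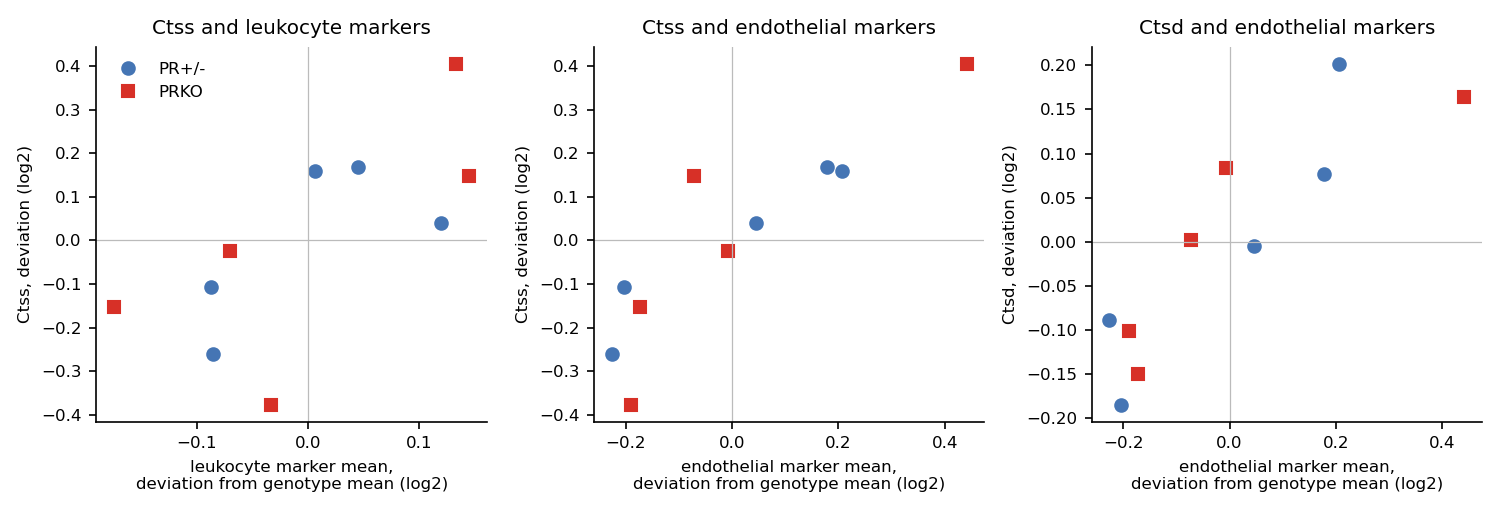
Deviation of Ctss or Ctsd from its genotype mean (y axis, log2) against the deviation of a marker mean (x axis, log2) in 5 PR+/- (circles) and 5 PRKO (squares) pools, in 3 panels. Pools with higher endothelial marker means have higher Ctss and Ctsd, with PRKO pool 4 farthest to the right.

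None of the endothelial, theca, oocyte and granulosa markers passed between genotypes in limma. An unadjusted p under 0.05 was found for 6 of 7 granulosa markers (5 higher, 1 lower) and 1 of 7 endothelial markers. That endothelial marker was Kdr, higher in PRKO, and 13.0% of all genes had such a p. The granulosa marker mean was 10.35 to 10.71 in PR+/- and 10.28 to 11.07 in PRKO, with Inha, Hsd17b1 and Inhba at log2 differences of 0.24, 0.56 and 0.60, and Inha did not overlap between genotypes. The theca and stroma mean was 8.06 to 8.70 and 7.96 to 8.96, with Cyp17a1, Col1a1 and Col1a2 at -0.02, 0.08 and 0.09. The oocyte mean was 8.11 to 8.80 and 8.06 to 8.93, with Bmp15, Nlrp5 and Gdf9 at -0.12, -0.24 and -0.14. Of the endothelial genes, Kdr, Cdh5 and Pecam1 had 0.41, -0.33 and -0.05. Kdr was the only 1 of the 7 above 0, so the endothelial mean joins genes that differed in opposite directions. The marker means of the genotypes overlapped in every list, and their part in the genotype differences of the cathepsins was not tested.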

How the data were processed

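The deposited values are log2 expression values per probe set, normalized by the authors. The submitters' processing notes name Partek without version or steps, and the sources used here do not say how background, normalization and summarization were handled. Of 35557 probe sets, 21789 carried 1 gene symbol, matched by Entrez ID to a GRCm38.p6 gene table (21698 matched, 0 symbols updated). The brightest probe set was kept for the 999 genes with several, which left 19938 genes. The gene test did not use the 1621 probe sets naming several genes or the 12147 naming none.

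PRKO and PR+/- were compared with limma 3.58.1 in R 4.3.3 (empirical Bayes, equal weights, no block), fitted over all 19938 genes and tested on simulated data. A call is an adjusted p under 0.05 (Benjamini-Hochberg over the 19938 genes). The members and lists were chosen with earlier results of these data known. Named genes are every cathepsin, genes past the threshold in each lysosomal list and up to 3 more by p, and in marker lists those past it and the 3 brightest. Correlations used deviations from genotype means and all 14400 orders within genotypes. Promoter sequences are RefSeq's, the first listed window per gene. Alternatives were quantile normalization, median centring, a robust prior, a trend in the prior, array weights, leaving out genes dimmer than the 30th percentile, a replicate block, other uses of probe sets, a stricter threshold, exact permutation and leaving out each pool. Arrays have no depth, so the 5 pools per genotype limit the precision. Python 3.11.15, pandas 2.3.3 and matplotlib 3.10.9 made the tables and figures.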

Additional observations from a re-analysis of the deposited data

Results flagged for a closer look

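In groups of 5 pools, 6 of 104 groups over the 52 genes named had 1 pool far from the other 4, and chance gives about 1 in 20. For the cathepsins these were Ctsb in PR+/- pool 5 (10.31, the others 10.16 to 10.21) and Ctsk in PRKO pool 4 (6.13, the others 5.91 to 5.97). Psap stood apart in PRKO pool 4 (12.61, the others 12.35 to 12.40), Igf2r in PR+/- pool 2 (9.53, the others 9.34 to 9.39), Gga2 in the same pool (8.15, the others 7.97 to 8.02) and Lyz2 in PR+/- pool 4 (6.49, the others 6.75 to 6.84). Without the pool named, the Psap difference was -0.47 and the Igf2r difference 0.34, and both passed in limma.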

How the results depend on the processing

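The Ctsl call held under 8 other settings of the limma fit (log2 difference -0.46 to -0.38, adjusted p up to 0.0149), at an adjusted p under 0.01 and without each pool in turn. Exact permutation called 0 of the 10 cathepsins after adjustment over all genes, since the smallest p that 252 splits allow, 0.00794, comes to 0.180 when adjusted. No gene passed so (2540 at an exact p under 0.05). Ctsl and Ctsz had that p and Ctsb one of 0.0397. No alternative in limma called a further cathepsin. Among the other lysosomal lists, the higher calls were 1 with quantile normalization and 1 to 2 without each pool, as the Igf2r call was lost. At an adjusted p under 0.01 the lists had 3 calls, with 0 higher (Lgmn was at 0.0124), and all genes 258, with 210 lower and 48 higher. Higher calls over all genes ran from 85 to 161 without each pool, against 150, with 92, 85, 95, 89 and 93 without PR+/- pools 1, 3 and 4 and PRKO pools 1 and 5. The relations to marker means that passed by Pearson r were 2 in place of 0 when the 4 other marker means were added. By Spearman rho 1 passed then. Those means were added after the data were seen. Same-numbered pools were not taken as pairs, since not every correlation of their deviations was over 0.1 (-0.10 to 0.32, 3 of 5 over 0.1). In 2 of 5 PR+/- and 3 of 5 PRKO pools the best correlation was with the own number. With the replicate number as a block, 1 cathepsin and 529 genes passed, 364 lower and 165 higher, Igf2r was lost (adjusted p = 0.0519) and Serpinb6b was called. The number of pools and signal near background, as for Ctsk, limit what can be seen.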

Other observations

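The placental cathepsins Cts3 and Ctsm shared 4 probe sets that name both genes, with means of 4.15 to 4.40, under the olfactory receptor level of 5.86 in both genotypes. Over the 211 tested genes whose promoter window holds TCACGTGA, the median log2 difference was 0.01 and 10 genes were called (4.74%, against 2.42% of the 15614 tested genes with a window). Over the 888 with ACANNNTGT, the median was -0.04 and 15 were called (1.69%).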
